A study of Mus musculus with 2 samples.

Results

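The replication-dependent histone genes are the clustered genes that supply the linker histone H1 and the core histones H2A, H2B, H3 and H4 to newly copied chromosomes. They were taken as every gene whose symbol starts with Hist1h, Hist2h, Hist3h or Hist4h and that had at least 20 UMIs (unique molecular identifiers, 1 per captured RNA molecule) over both libraries. Of 67 such symbols 63 passed, out of 32285 genes in all. The 4 left out had 1 or 2 UMIs each (Hist2h2aa2, Hist1h2bq, Hist1h2ba and Hist1h2aa), and the lowest members kept were Hist1h2ah with 29 UMIs and Hist1h1t with 30 UMIs. The members comprise 6 H1, 16 H2A, 16 H2B, 12 H3 and 13 H4 genes, of which 51 lie in the Hist1 cluster on chromosome 13, 9 in the Hist2 cluster on chromosome 3, 2 on chromosome 11 and 1 on chromosome 6.

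Both libraries came from mouse thymus of the genotype E2F_M11, in which CRISPR-Cas9 removed 2 E2F binding sites from the proximal promoter of Foxn1, the master regulator of thymic epithelium. Both groups of every comparison carry that deletion, and the wild-type stroma the study set against it was not analysed here. Stromal cells were released with collagenase and dispase, depleted of CD45-positive blood cells on magnetic beads, and profiled with droplet 3′ single-cell RNA sequencing. The labels give no age or sex and do not say whether the libraries came from separate animals, so p-values measure only the spread between these 2 libraries, which may be technical.

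Replication-dependent histone genes are known to be transcribed mainly in S phase, when the cyclin E and CDK2 kinase acts on the coactivator NPAT at the histone clusters. Their mRNAs classically carry no poly(A) tail and end shortly after a conserved stem-loop, which is bound by the stem-loop binding protein SLBP. Some members also give polyadenylated mRNAs with longer ends, made outside S phase or after cells stop dividing. Droplet 3′ libraries are primed on poly(A), so levels below are levels of captured RNA and may stand apart from the total amount of histone mRNA. In the thymus the main dividing cells are immature thymocytes, alongside smaller dividing pools of epithelial cells and fibroblasts.

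The stem-loops below show the element that defines this gene family at its RNA end. They were read from the GENCODE vM21 transcripts (GRCm38), with the 4-base loop in capitals. An inverted repeat of this form was found in 45 of 63 members. The first form stood in 25 members, including Hist1h1e. The second stood in 7 (Hist1h4d), the third in 6 (Hist1h3c), the fourth in 2 (Hist1h4i) and the fifth in 1 (Hist2h2ac).
Hist1h1e: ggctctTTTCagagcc
Hist1h4d: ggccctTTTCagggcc
Hist1h3c: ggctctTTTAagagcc
Hist1h4i: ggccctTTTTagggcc
Hist2h2ac: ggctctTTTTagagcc
The 3 remaining forms stood in 4 further members. Where none was found, the annotated transcript may end before it: that of Hist1h1b is annotated with 0 bases after the stop codon. The annotated transcript of Hist1h2bc has 2 exons, runs from 23684199 to 23692908 on the forward strand of chromosome 13 and holds no such repeat.

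The promoters below belong to 4 members given as examples. Hist1h1b, Hist1h3c and Hist2h2ac were called higher in dividing cells of each of the 3 classes tested below. The fourth stretch holds the annotated starts of both Hist1h2ac and Hist1h2bc, on opposite strands. All 4 are RefSeq sequences (GRCm38.p6), 250 bases before to 50 after the start, from genes on the reverse strand. Capitals mark matches to the TATA box (TATAAA), the CCAAT box (CCAAT), the octamer (ATTTGCAT) and the H1 box (AAACACA), searched on both strands.
Hist1h1b, chr13:21780576-21780875, reverse strand: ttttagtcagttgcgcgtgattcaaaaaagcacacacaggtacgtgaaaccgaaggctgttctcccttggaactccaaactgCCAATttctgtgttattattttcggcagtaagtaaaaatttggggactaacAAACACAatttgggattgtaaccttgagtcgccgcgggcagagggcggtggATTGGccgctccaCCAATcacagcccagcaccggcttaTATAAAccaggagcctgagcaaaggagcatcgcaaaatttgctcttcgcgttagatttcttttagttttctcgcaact
Hist1h3c, chr13:23745472-23745771, reverse strand: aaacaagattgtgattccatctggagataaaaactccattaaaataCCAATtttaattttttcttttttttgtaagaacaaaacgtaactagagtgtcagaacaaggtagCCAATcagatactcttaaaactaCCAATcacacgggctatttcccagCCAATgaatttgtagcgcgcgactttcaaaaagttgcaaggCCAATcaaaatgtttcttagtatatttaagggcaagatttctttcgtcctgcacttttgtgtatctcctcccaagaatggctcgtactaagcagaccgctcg
Hist2h2ac, chr3:96220831-96221130, reverse strand: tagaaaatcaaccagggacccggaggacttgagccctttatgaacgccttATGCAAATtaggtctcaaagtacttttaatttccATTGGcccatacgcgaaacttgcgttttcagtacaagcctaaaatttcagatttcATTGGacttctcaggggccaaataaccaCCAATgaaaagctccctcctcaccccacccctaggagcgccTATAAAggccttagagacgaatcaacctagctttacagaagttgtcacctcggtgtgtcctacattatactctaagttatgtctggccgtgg
Hist1h2ac, chr13:23683910-23684209, reverse strand: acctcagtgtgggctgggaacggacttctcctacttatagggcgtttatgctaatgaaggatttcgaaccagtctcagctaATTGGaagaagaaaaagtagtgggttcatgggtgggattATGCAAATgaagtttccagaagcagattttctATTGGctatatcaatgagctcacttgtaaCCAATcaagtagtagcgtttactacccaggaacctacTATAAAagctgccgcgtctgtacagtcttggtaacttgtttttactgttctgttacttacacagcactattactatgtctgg
Of the 63 members 57 matched a RefSeq promoter by name. The CCAAT box stood in 48 of these, or 84.2%, against 37.4% of all 32851 promoters of the same length, and only 3 of 12 H4 promoters held one. TATAAA stood in 57.9% of member promoters against 13.6% of all promoters, and the octamer in 19.3% against 1.74%. The octamer matches lay in 6 H2A and 5 H2B promoters and in no matched H1, H3 or H4 promoter. Promoter stretches of head-to-head genes can overlap, and both strands were searched, so the same site can count for both genes. The octamer of Hist1h2ae and Hist1h2bg is such a shared site. The member shares of every motif therefore include sites counted for both genes of a pair. The H1 box stood in 5 of 6 H1 promoters, in 12.3% of member promoters and in 7.18% of all promoters. No motif contains another, and a match describes letters only. Head-to-head H2A and H2B genes formed 10 pairs whose starts lay 176 to 302 bases apart, with Hist1h2ac and Hist1h2bc at 251 bases and Hist2h2ac and Hist2h2be at 239 bases.

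The members gave 147388 UMIs, 38919 in library 1 and 108469 in library 2, of 41075328 and 42583831 UMIs in all. H1 genes held 38.3% of the member UMIs, H2A 19.4%, H4 17.6%, H2B 17.5% and H3 7.20%. The top 5 members held 52.3%: Hist1h1b with 21556 UMIs, Hist1h4d with 16668, Hist1h1e with 14467, Hist1h2bc with 13752 and Hist1h1c with 10655. Many members are near copies of each other, and for the median member 44.1% of the 50-base stretches of its transcripts also occurred in another histone gene. Hist1h1b and Hist1h1a shared none, Hist1h4d shared 10.2% and Hist1h2bc 29.4%, whereas Hist1h2ap shared 93.1% and Hist1h2af 79.7%. Values of the highly shared members are therefore uncertain, as are those of 7 members that overlap another gene on the same strand, among them Hist1h1e and Hist3h2a.

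Cells were assigned to marker-gated classes and, within a class, to states. Of 5110 and 19163 barcodes, 3588 and 8186 passed the filters in libraries 1 and 2, of which 3062 and 2687 fell into a class. A dividing cell had at least 20 UMIs of 23 S and 24 G2/M marker genes per 10,000 of its UMIs, with at least 4 such UMIs from 3 genes, a non-dividing cell under 8, and no histone gene was a marker. The dividing cells numbered 15 and 713 thymocyte-like, 55 and 22 mTEC-like (medullary thymic epithelium), and 27 and 18 fibroblast-like cells in libraries 1 and 2. The non-dividing cells numbered 49 and 237 thymocyte-like, 549 and 193 mTEC-like, and 1660 and 759 fibroblast-like cells. Cells near the cut, between both limits or with too few marker UMIs, were kept out of both states: 33 and 278 thymocyte-like, 77 and 58 mTEC-like, and 75 and 134 fibroblast-like. Thymocyte-like cells are those that passed the CD45 depletion, and the libraries shared 30 barcodes. Levels are given as CPM, a gene's UMIs per 1000000 UMIs of all cells of that class, state and library added together. Each level is 1 library's value, in the order library 1, library 2.

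Dividing cells carried more replication-dependent histone RNA than non-dividing cells of the same class in both libraries. Added over all 63 genes, the level was 20782 and 8762 CPM in dividing against 4173 and 3068 CPM in non-dividing thymocyte-like cells. It was 3659 and 2352 CPM in dividing against 778 and 709.9 CPM in non-dividing mTEC-like cells. In fibroblast-like cells it was 1713 and 1080.3 CPM in dividing against 371 and 391 CPM in non-dividing cells. The ratio was 4.98 and 2.86 in thymocyte-like, 4.70 and 3.31 in mTEC-like and 4.62 and 2.77 in fibroblast-like cells, and in each class it was higher in library 1. The levels of dividing and non-dividing cells did not overlap in any of the 3 classes. Dividing fibroblast-like cells of library 2 rest on 50 histone UMIs. Cells with markers of thymocytes above 15 UMIs per 10,000 were left out of the other classes, and what remained was 101 and 312 CPM of 16 thymocyte marker genes in dividing against 187 and 349 CPM in non-dividing mTEC-like cells, so the marker level was lower, and the histone level higher, in dividing cells of both libraries. In fibroblast-like cells the markers were at 116 and 799 CPM in dividing against 179 and 401 CPM in non-dividing cells, higher in dividing cells of library 2, and their part in the result was not tested.

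**Figure D1:**
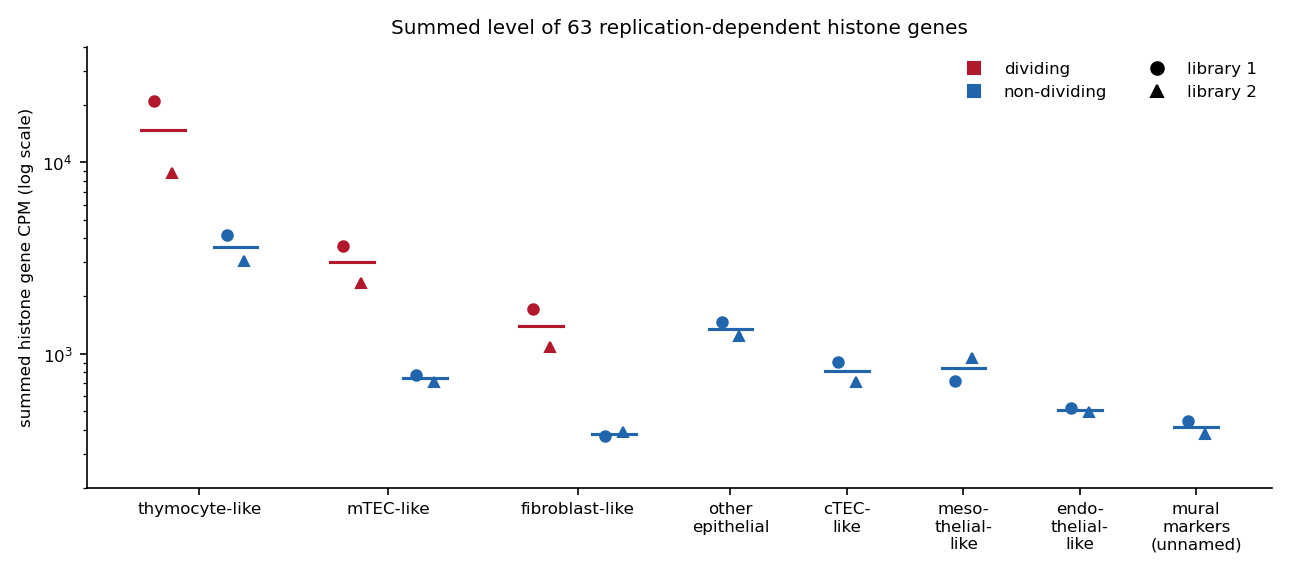
Summed CPM of the 63 replication-dependent histone genes (log scale) in each marker-gated class, with dividing cells in red and non-dividing cells in blue, 1 point per library and a bar at the mean of both libraries. Dividing cells lie above non-dividing cells in the 3 classes with enough dividing cells, and thymocyte-like cells lie highest, at 20782 and 8762 CPM.

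Of the 63 members, 50 had enough counts to be tested with edgeR's quasi-likelihood test over all 12593 genes, with the library as a block and Benjamini-Hochberg adjustment. The 13 untested members held 1.21% of the member UMIs, at most 278 each. Averaged over the 3 classes, 34 members were called higher and 1 lower in dividing cells at an adjusted p of 0.05, where 9.07% of all genes tested were called higher and 8.78% lower. The median log2 fold of the 50 tested members was 2.40, against -0.17 over all genes tested. In mTEC-like cells 38 members were called higher and 0 lower (9.1% and 10.6% of all genes). At an unadjusted p under 0.05, 41 members were higher and 0 lower in mTEC-like cells, and DESeq2 called 0 lower. In thymocyte-like cells 32 were higher and 1 lower (7.97% and 3.49% of all genes), and in fibroblast-like cells 13 higher and 0 lower (2.62% and 2.5% of all genes). At an unadjusted p under 0.05, 27 members were higher and 1 lower in fibroblast-like cells, and DESeq2 called 0 lower. The count in thymocyte-like cells was 21 with DESeq2, and that in fibroblast-like cells 41 when cells with thymocyte markers were kept. In all, 13 members were called higher in each of the 3 classes, 18 in 2 classes, 8 in 1 class and 24 in none, of which 11 had been tested. The share of all genes by number of classes was not counted, so these counts have no background beside them.

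Over all 63 genes, tested or not, the median log2 difference between dividing and non-dividing cells, with TMM scaling and a prior count of 2, was 2.61 and 1.82 in thymocyte-like cells of libraries 1 and 2, and 2.20 and 1.72 in mTEC-like cells. Averaged over the 3 classes it was 1.92 in library 1 and 0.99 in library 2. The fitted median of 2.40 covers tested members only, and their count filter used the dividing sums too. In fibroblast-like cells the median over all 63 genes was 1.33 in library 1 and -0.46 in library 2, where 19 of 63 members lay above 0. Taking the mean of both libraries, the median over all genes tested was -0.59 in fibroblast-like cells, against 0.59 over the 63 members. For the other classes that all-gene median was 0 in thymocyte-like and -0.14 in mTEC-like cells, and it was -0.37 over the 3 classes. It was not taken per library. The 18 dividing fibroblast-like cells of library 2 had a median of 2092 UMIs each, against 7277 UMIs in non-dividing ones, and a member with 0 counts there may have had up to 64.8 CPM (3 counts). Member by member, fibroblast-like cells therefore rest mainly on library 1.

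Among the linker histones, Hist1h1b (H1.5, ENSMUSG00000058773, chr13:21779883-21780625, reverse strand) was the most abundant member and among the most division-linked. Its level was 565 and 344 CPM in dividing against 6.23 and 12.8 CPM in non-dividing mTEC-like cells. In fibroblast-like cells it was 395 and 238 CPM in dividing against 5.54 and 15.1 CPM in non-dividing cells. In thymocyte-like cells it was 3681 and 2049 CPM in dividing against 526 and 324 CPM in non-dividing cells. Both dividing values exceeded both non-dividing values in each class. The fitted log2 fold was 5.84 ± 0.55 (SE, adjusted p = 2e-07) in mTEC-like, 4.86 ± 0.54 (1.8e-06) in fibroblast-like and 2.96 ± 0.47 (0.0002) in thymocyte-like cells.

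The low Hist1h1b level of non-dividing stroma was set against RNA of thymocyte marker genes in the same cells. Per thymocyte marker UMI there were 0.033 and 0.037 Hist1h1b UMIs in non-dividing mTEC-like and 0.031 and 0.038 in non-dividing fibroblast-like cells, against 0.031 and 0.019 in non-dividing and 0.271 and 0.185 in dividing thymocyte-like cells. The stromal ratios were therefore not above the range of thymocyte-like cells, and no expression is read from this low level, whose source was not tested. In dividing mTEC-like cells the ratio was 5.59 and 1.10, above the 0.271 and 0.185 of dividing thymocyte-like cells in both libraries. In dividing fibroblast-like cells it was 3.41 in library 1 but 0.297 in library 2, from 11 Hist1h1b and 37 marker UMIs, so the library 2 value lies near that of thymocytes.

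The other H1 genes differed among themselves. Hist1h1a (H1.1) had 51.1 and 27.4 CPM in dividing against 2.35 and 6.16 CPM in non-dividing mTEC-like cells, and 479.8 and 259 against 120.5 and 99.9 CPM in thymocyte-like cells. It rose in all 3 classes. Hist1h1e (H1.4) had 301 and 152 CPM in dividing against 64.9 and 40.3 CPM in non-dividing mTEC-like cells, a log2 fold of 2.21 ± 0.30 (adjusted p = 1.9e-05), and 0.96 ± 0.29 (0.032) in thymocyte-like cells. Hist1h1d (H1.3) rose in mTEC-like cells (2.07 ± 0.39, adjusted p = 0.00069) but was not called in thymocyte-like cells (0.55 ± 0.35, adjusted p = 0.38), where it had 602 and 298 CPM in dividing against 444 and 249 CPM in non-dividing cells. Hist1h1c (H1.2) was not called in any class. It had 105 and 54.9 CPM in dividing against 78.3 and 84.9 CPM in non-dividing mTEC-like cells, which overlap, and its fold averaged over the classes was 0.07 ± 0.20 on the log2 scale (adjusted p = 0.91).

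Among the H2A genes (16 members, 12 tested), 10 were called higher and 1 lower averaged over classes (9.07% and 8.78% of all genes). Hist1h2ae had 312 and 227 CPM in dividing against 12.04 and 16.6 CPM in non-dividing mTEC-like cells, and 1583 and 627 against 108 and 105 CPM in thymocyte-like cells. Hist1h2ap had 228 and 137 CPM in dividing against 4.70 and 2.85 CPM in non-dividing mTEC-like cells, a log2 fold of 5.66 ± 0.49 (adjusted p = 9.9e-08). Both were called higher in all 3 classes, and neither overlapped between states in mTEC-like or thymocyte-like cells. Hist1h2ab had 573 and 328 CPM in dividing against 25.4 and 18.1 CPM in non-dividing thymocyte-like cells, a log2 fold of 4.61 ± 0.47 (adjusted p = 1.8e-06). Hist2h2ac had 149 and 79.8 CPM in dividing against 9.69 and 8.54 CPM in non-dividing mTEC-like cells. In fibroblast-like cells Hist1h2ap and Hist2h2ac had 120.1 and 94.4 CPM in dividing cells of library 1 and 0 counts in those of library 2.

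Hist3h2a (ENSMUSG00000078851, chr11:58954685-58956830, forward strand), an H2A gene outside the large clusters, was the only member called lower in dividing cells. It had 50.1 and 39.9 CPM in dividing against 88.8 and 148 CPM in non-dividing thymocyte-like cells, which did not overlap, and fell by 1.33 ± 0.32 on the log2 scale (adjusted p = 0.0077). In mTEC-like cells it had 25.9 and 37.4 CPM in dividing against 31.5 and 43.6 CPM in non-dividing cells and was not called (-0.16 ± 0.31, adjusted p = 0.77). It overlaps Trim17 on the same strand, so its value is uncertain, and it was not called over classes when cells with thymocyte markers were kept.

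Among the H2B genes (16 members, 15 tested), 8 were called higher and 0 lower averaged over classes (9.07% and 8.78% of all genes). Hist1h2bm had 31.6 and 12.5 CPM in dividing against 0.415 and 0.948 CPM in non-dividing mTEC-like cells, a log2 fold of 5.51 ± 0.66 (adjusted p = 5.7e-06), and rose in all 3 classes. Hist1h2bc (ENSMUSG00000018102), the most abundant H2B gene, was not called in any class. It had 176 and 242 CPM in dividing against 265 and 237 CPM in non-dividing mTEC-like cells, 158 and 81.9 against 95.1 and 93.9 CPM in thymocyte-like cells, and 66.5 and 21.6 against 85.4 and 68.8 CPM in fibroblast-like cells. The groups overlap in the epithelial and thymocyte classes, and the fold averaged over classes was -0.19 ± 0.19 on the log2 scale (adjusted p = 0.58). Summed over H2B genes, the ratio of dividing to non-dividing cells was 1.56 and 1.59 in mTEC-like cells and 1.61 and 0.694 in fibroblast-like cells, against 5.37 and 2.47 in thymocyte-like cells.

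Among the H3 genes (12 members, 10 tested), 7 were called higher and 0 lower averaged over classes (9.07% and 8.78% of all genes). Hist1h3c (ENSMUSG00000069310, chr13:23744973-23745602, reverse strand) showed a wide gap, with 75 and 1198 UMIs in dividing against 0 and 1 UMI in non-dividing thymocyte-like cells. In mTEC-like cells it had 149.6 and 74.8 CPM in dividing against 0.415 and 1.42 CPM in non-dividing cells, from 3 UMIs in each library, and a fitted log2 fold of 7.48 ± 0.71 (adjusted p = 2.4e-07). Summed over H3 genes the ratio of dividing to non-dividing cells was 10.3 and 5.83 in mTEC-like, 8.72 and 3.803 in thymocyte-like and 12.1 and 5.52 in fibroblast-like cells. Hist1h3b was also called higher in mTEC-like cells (adjusted p = 0.00021), with 12.6 and 17.5 CPM in dividing against 0.138 and 0.948 CPM, or 1 and 2 UMIs, in non-dividing cells.

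Among the H4 genes (13 members, 8 tested), 5 were called higher and 0 lower averaged over classes (9.07% and 8.78% of all genes). Hist1h4d held most of their UMIs, with 479 and 232 CPM in dividing against 114 and 57.9 CPM in non-dividing mTEC-like cells, and 3896 and 1155 against 431 and 229 CPM in thymocyte-like cells. Its log2 fold was 2.95 ± 0.30 (adjusted p = 1.6e-06) in thymocyte-like, 2.15 ± 0.29 (1.8e-05) in mTEC-like and 1.20 ± 0.32 (0.029) in fibroblast-like cells. Hist1h4i rose in mTEC-like cells, with 48.0 and 77.3 CPM in dividing against 18.0 and 27.5 CPM in non-dividing cells (1.53 ± 0.35, adjusted p = 0.0032). In thymocyte-like cells it had 85.9 and 105 CPM in dividing against 88.8 and 77.1 CPM in non-dividing cells and was not called.

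**Figure D2:**
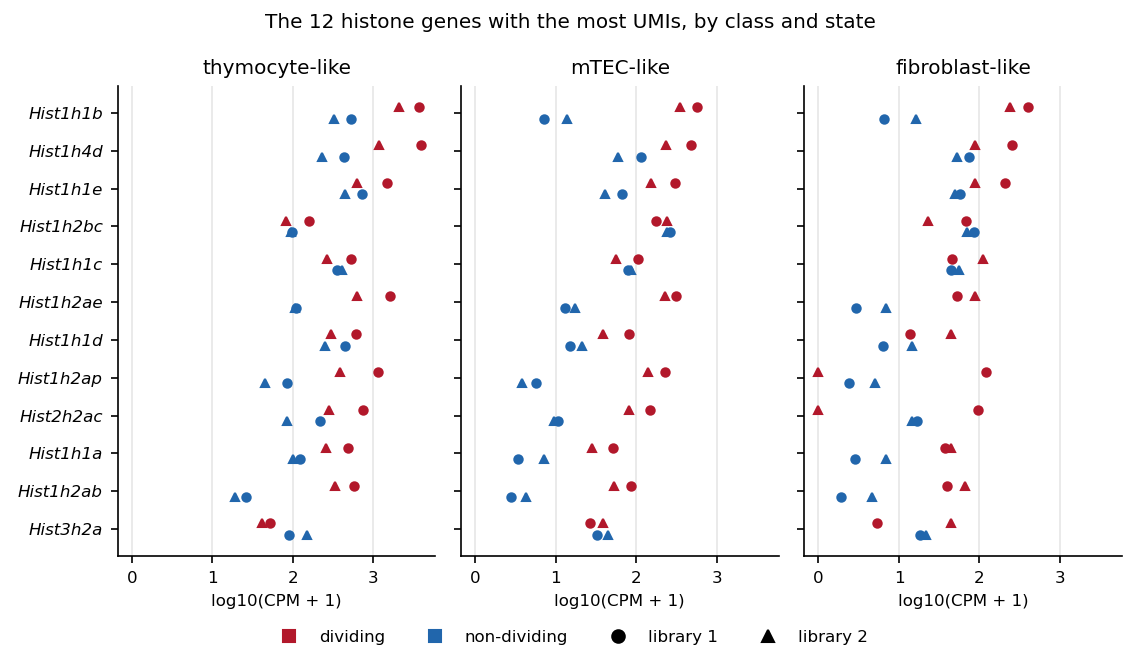
Levels of the 12 histone genes with the most UMIs as log10(CPM + 1) in thymocyte-like, mTEC-like and fibroblast-like cells, dividing in red and non-dividing in blue, with circles for library 1 and triangles for library 2. Hist1h1b separates by state in all 3 panels, whereas Hist1h2bc and Hist1h1c overlap between states in mTEC-like cells.

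The histone types made up different shares of histone RNA in the 2 states. H2B genes held 13.3% and 19.3% of member UMIs in dividing against 40.02% and 40.28% in non-dividing mTEC-like cells, while H2A genes held 26.6% and 27.5% in dividing against 10.1% and 13.4% in non-dividing cells. In thymocyte-like cells H2B genes held 10.6% and 10.2% in dividing against 9.9% and 11.8% in non-dividing cells, which overlap. H1 genes there held 32.5% and 39.9% in dividing against 52.0% and 49.5% in non-dividing cells. In mTEC-like cells the H1 share went the other way, with 30.2% and 26.2% in dividing against 21.3% and 23.2% in non-dividing cells, as in fibroblast-like cells, with 40.7% and 48.0% against 30.1% and 35.2%.

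**Figure D3:**
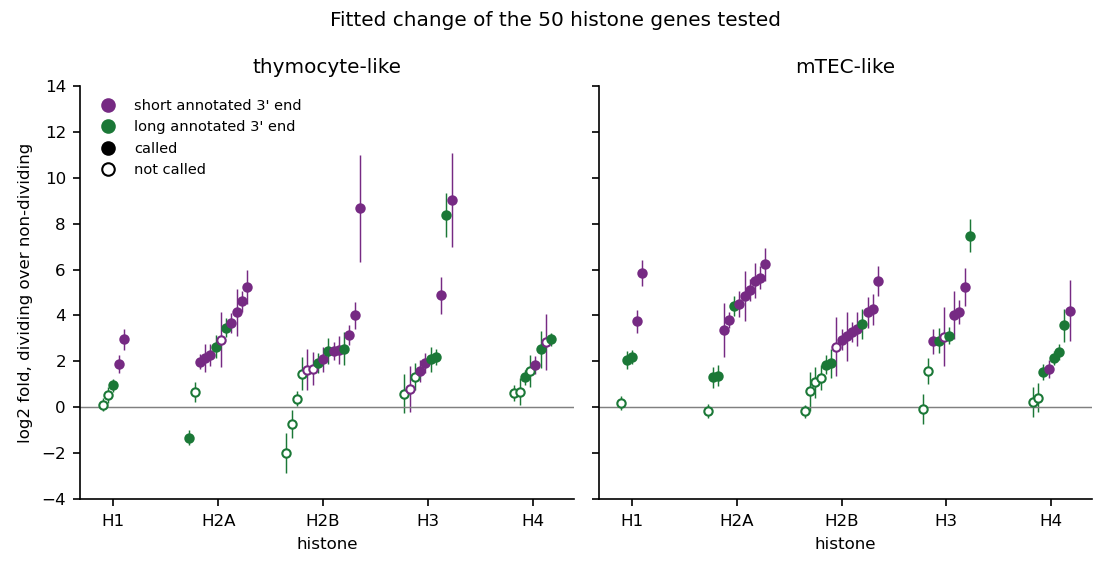
Fitted log2 fold, dividing over non-dividing, of the 50 tested histone genes by histone type in thymocyte-like and mTEC-like cells, with lines of ± 1 SE, filled points for called genes, purple for short and green for long annotated ends. The lowest H2B points in mTEC-like cells include Hist1h2bc at -0.18, and in thymocyte-like cells Hist3h2a is the filled H2A point at -1.33.

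The members were also split by their annotated ends, with a limit of 100 bases after the stop codon chosen after the gene models were seen. It left 34 short-ended and 29 long-ended members. Hist1h3g with 95 and Hist1h3b with 96 bases were the last short-ended members, and Hist2h2aa1 with 109 and Hist1h3c with 114 the first long-ended ones. Averaged over classes, 22 short-ended members were called higher and 0 lower, while 12 long-ended ones were called higher and 1 lower. Of each kind 25 were tested, and of all genes 9.07% were called higher and 8.78% lower. The median log2 fold of those tested was 3.46 for short-ended and 1.30 for long-ended members. The count filter used the dividing sums too, so members high only in dividing cells could pass it. No median over all members was taken for this split. In mTEC-like cells the short-ended genes summed 20.9 and 11.1 times higher in dividing than non-dividing cells, and the long-ended ones 2.92 and 2.23 times. In thymocyte-like cells the ratios were 7.34 and 4.78 for short-ended and 3.81 and 1.98 for long-ended genes.

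Long-ended genes made up a smaller share of histone RNA in dividing cells. They held 56.0% and 59.2% of member UMIs in dividing against 90.1% and 87.8% in non-dividing mTEC-like cells. In fibroblast-like cells they held 48.4% and 58.0% in dividing against 88.2% and 81.3% in non-dividing cells, and in thymocyte-like cells 51.2% and 47.7% against 66.9% and 68.8%. The shares did not overlap between states in any of the 3 classes. Hist1h1b counts as short-ended from a gene model that stops at the stop codon. It gave 895 of the 2551 short-ended UMIs in dividing mTEC-like cells of library 1. The models of other short-ended members, among them Hist2h2bb, Hist1h3i, Hist1h2bn, Hist1h2ak, Hist1h2an and Hist1h2bl, also hold 0 bases after the stop codon. For all of these, a short annotated end may only reflect where the model stops. Hist1h3c, a long-ended member, had at most 3 UMIs in any non-dividing thymocyte-like or mTEC-like sum, so the annotated end did not sort every member.

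**Figure D4:**
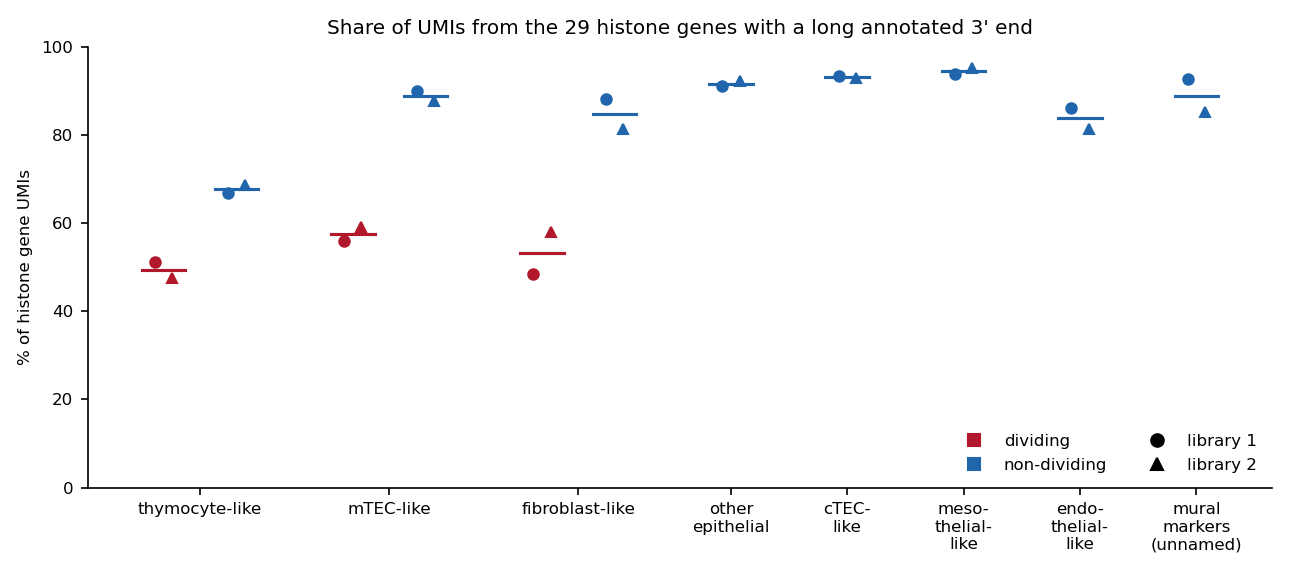
Share of replication-dependent histone UMIs that came from the 29 genes with a long annotated end, by class, with dividing cells in red, non-dividing cells in blue, 1 point per library and a bar at the mean. Dividing cells lie between 47.7% and 59.2%, non-dividing thymocyte-like cells at 66.9% and 68.8%, and the non-dividing stromal classes above 80%.

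Among non-dividing cells, thymocyte-like cells carried the most histone RNA, and 35 members were called higher and 1 lower in them than in non-dividing mTEC-like cells, where 13.8% of all genes tested were called higher and 26.4% lower. The median log2 fold of the tested members was 2.79, against -0.33 over all genes. Hist1h1b was 5.40 ± 0.55 higher on the log2 scale (adjusted p = 1e-07). Hist1h1d had 444 and 249 CPM in non-dividing thymocyte-like against 13.98 and 20.4 CPM in non-dividing mTEC-like cells (4.16 ± 0.39, adjusted p = 3.5e-08). Hist1h1c, not called between states, had 349 and 406 CPM in thymocyte-like cells, against 78.3 and 84.9 CPM for the mTEC-like class (2.11 ± 0.30, adjusted p = 9.3e-06). Also called higher were Hist1h2an (4.86), Hist1h1a (4.74), Hist1h2bn (4.62), Hist1h3i (4.51) and Hist1h2ak (4.16), all as fitted log2 folds. Hist1h2bc was the 1 called lower, with 95.1 and 93.9 CPM in thymocyte-like cells, against 265 and 237 CPM for the mTEC-like class (-1.46 ± 0.31, adjusted p = 0.0007).

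Between non-dividing mTEC-like and fibroblast-like cells, 13 members were called higher and 1 lower, with 50 tested, where 22.1% of all genes were called higher and 19.7% lower. The higher calls were thus near the background share, and the lower calls below it. The median log2 fold of the tested members was 0.71, against -0.02 over all genes. Hist1h2bc had 265 and 237 CPM in mTEC-like against 85.4 and 68.8 CPM in fibroblast-like cells (log2 1.58 ± 0.28, adjusted p = 5.2e-05). Its ratio to thymocyte marker UMIs was 1.42 and 0.680 in non-dividing mTEC-like and 0.006 and 0.006 in non-dividing thymocyte-like cells. The members called with the largest folds were present at low levels. Hist1h2bg had 4.01 and 3.32 CPM in mTEC-like against 0.255 and 0.175 CPM in fibroblast-like cells (3.61 ± 0.70, adjusted p = 0.00023), and Hist1h4i had 18.0 and 27.5 against 4.01 and 5.26 CPM (2.14 ± 0.34, adjusted p = 1.9e-05). Also called higher were Hist3h2ba (3.47), Hist1h3d (2.25), Hist1h2br (2.17) and Hist1h3f (1.88), given as log2 folds. Hist2h2ac was called lower, with 9.69 and 8.54 CPM in mTEC-like against 15.7 and 13.5 CPM in fibroblast-like cells (-0.86 ± 0.34, adjusted p = 0.043), a call lost under DESeq2 and under 4 other settings.

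Classes with too few dividing cells for a test are described in the non-dividing state only. The summed level was 1473 and 1231 CPM in other epithelial cells (led by Wfdc2, Gng13 and Wfdc18) and 904 and 712 CPM in cTEC-like cells (cortical thymic epithelium). It was 720.3 and 955 CPM in mesothelial-like cells and 522 and 499 CPM in endothelial-like cells. Cells gated on mural markers were led by fibroblast genes, stay unnamed, and had 448 and 382 CPM. Hist1h2bc made up much of these levels, with 538 and 327 CPM in cTEC-like, 497 and 425 CPM in other epithelial and 414 and 402 CPM in mesothelial-like cells, but only 46.1 and 39.2 CPM in endothelial-like cells. H2B genes thus held 61.9% and 50.9% of member UMIs in cTEC-like and 60.7% and 48.6% in mesothelial-like cells. Hist1h1c was highest among these in other epithelial cells, at 288 and 291 CPM, while Hist1h1b was at 18.8 CPM or less in each of them. Mesothelial-like cells also held 13695 and 11109 CPM of 9 fibroblast markers, and in library 2 they were 10 cells. Endothelial-like cells held 487 and 4206 CPM of 7 mural markers, beside 6285 and 6267 CPM of 8 endothelial markers, so their libraries differed in make-up.

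Per cell, the median histone level was 126 and 51.2 UMIs per 10,000 in dividing against 43.1 and 30.7 in non-dividing thymocyte-like cells. In mTEC-like cells it was 13.9 and 14.7 in dividing against 6.17 and 5.75 in non-dividing cells, and in fibroblast-like cells 6.55 and 10.9 against 3.29 and 3.71. Few dividing stromal cells were very high: at least 50 UMIs per 10,000 stood in 23.6% and 9.09% of dividing against 0.182% and 0% of non-dividing mTEC-like cells. The single highest cell gave 11.7% and 32.3% of all histone UMIs of dividing mTEC-like cells. With every cell thinned to 1000 UMIs, 80.0% and 77.3% of dividing against 45.7% and 51.3% of non-dividing mTEC-like cells had a histone UMI. The exact 95% binomial intervals (counting error only) were 67.0% to 89.6% and 54.6% to 92.2% for dividing and 41.5% to 49.99% and 44.0% to 58.5% for non-dividing cells. Unthinned, the shares were 96.4% and 90.9% in dividing and 96.5% and 92.7% in non-dividing mTEC-like cells, whose median depths were 28846 and 12756 against 10333 and 8099 UMIs.

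The level did not climb evenly with the division score. In mTEC-like cells of library 1 it was 8.08, 7.19 and 7.49 histone UMIs per 10,000 in cells with scores of 0 to 4, 4 to 8 and 8 to 20, then 13.6 at 20 to 50 and 53.0 at 50 to 100. Library 2 gave 7.55, 6.32, 6.43, 11.8 and 32.5 over the same bins. In library 1 a further 4 mTEC-like cells scored above 100, at 41.4. In thymocyte-like cells of library 1 it was 35.1, 46.6, 64.8 and 42.7 in the first 4 bins, 89.4 at 50 to 100 in 2 cells, and 282 above 100 in 8 cells. In those of library 2 it stayed between 23.5 and 33.3 up to a score of 100 and was 113 above it. The 20 to 50 bin of thymocyte-like cells in library 1 held 8 cells, and the upper 2 mTEC-like bins of library 2 held 16 and 9.

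**Figure D5:**
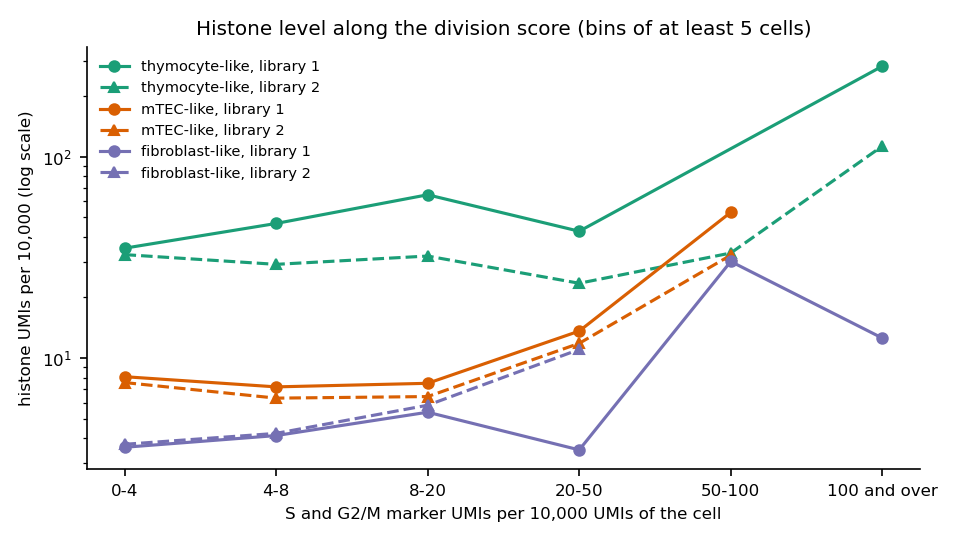
Histone UMIs per 10,000 (log scale) in bins of the division score, which counts S and G2/M marker UMIs per 10,000 UMIs of a cell, for 3 classes and 2 libraries, with bins under 5 cells left out. The mTEC-like lines are flat near 6 to 8 up to a score of 20 and reach 53.0 and 32.5 at 50 to 100.

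Dividing cells were further split into S-marked cells (S marker UMIs at least equal to G2/M ones) and G2/M-marked cells (G2/M at least 2 times S), with the rest called mixed. The summed level did not differ one way: it was 2845 and 4132 CPM in S-marked against 2700 and 1702 CPM in G2/M-marked mTEC-like cells, but 13885 and 6351 against 25263 and 11909 CPM in thymocyte-like cells. In fibroblast-like cells it was 944 and 796 CPM in S-marked against 1470 and 1533 CPM in G2/M-marked cells. The 6 mixed mTEC-like cells of library 1 had 9417 CPM and the 3 mixed fibroblast-like cells 7088 CPM, above both other sets, while the 4 mixed mTEC-like cells of library 2 had 2081 CPM. Averaged over classes, 0 members were called higher and 1 lower in S-marked cells by edgeR (0.595% and 1.15% of all 11599 genes tested). At an unadjusted p under 0.05, 1 member was higher and 5 lower, and DESeq2 called 0 higher and 1 lower. The member called lower was Hist1h2bc, with 91.4 and 103 CPM in S-marked against 242 and 337 CPM in G2/M-marked mTEC-like cells (log2 -1.33 ± 0.33 over classes, adjusted p = 0.025). In thymocyte-like cells it had 89.8 and 49.0 CPM in S-marked against 63.6 and 133 CPM in G2/M-marked cells, which overlap. With the looser dividing gate, from 12 marker UMIs per 10,000, Hist1h2bc was not called (-1.05, adjusted p = 0.111). Its adjusted p ran from 0.000972 to 0.111 over the alternatives. Hist1h1b had 580 and 776 CPM in S-marked against 171 and 149.8 CPM in G2/M-marked mTEC-like cells, but 3142 and 1811 against 4131 and 2348 CPM in thymocyte-like cells, and it was not called (0.62 ± 0.29, adjusted p = 0.47). These sets are small, down to 5 cells.

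Whether division moved the members by the same amount in thymocyte-like and mTEC-like cells was tested as an interaction. By edgeR 0 members were called higher or lower (0.206% and 0.175% of all genes), as by DESeq2, and at an unadjusted p under 0.05 the count was 0 higher and 14 lower. The median over the 50 tested members was -0.98 on the log2 scale, against 0.21 over all genes. Over all 63 members, on log2 CPM with a prior count of 2, it was 0.077, against 0.15 over all genes tested. By library it was 0.086 in library 1 and -0.11 in library 2, with 35 and 30 members above 0. With a prior count of 0.5 the median over the same 63 members was -0.35. Its sign therefore turns with the prior count, and the fitted median differs in both method and members. The member nearest the threshold was Hist1h1b, whose fold was smaller in thymocyte-like cells by 2.89 ± 0.67 (difference -2.89, adjusted p = 0.059). Its non-dividing level was 526 and 324 CPM for the thymocyte-like class, against 6.23 and 12.8 CPM for the mTEC-like class. A p above the threshold does not show that the effects were alike.

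Histone supply was followed with a list of 22 transcription, processing and chaperone genes, of which 21 were tested. In the average over classes 12 were called higher and 0 lower in dividing cells, with a median log2 fold of 0.79 over those tested, where 9.07% of all genes were called higher and 8.78% lower and the median of all genes was -0.17. They included the stem-loop binding protein Slbp, which had 451 and 403 CPM in dividing against 88.8 and 54.2 CPM in non-dividing thymocyte-like cells and 133 and 117 against 40.3 and 38.9 CPM in mTEC-like cells (log2 1.91 ± 0.24 over classes, adjusted p = 2.8e-06). The histone chaperones Asf1b (5.47 ± 0.49), Chaf1a (3.93 ± 0.33), Chaf1b (4.03 ± 0.44) and Nasp (2.29 ± 0.18), the acetyltransferase Hat1, the cyclins Ccne1 and Ccne2, Cdk2, E2f1, the processing factor Cpsf2 and the CCAAT-binding subunit Nfyb were also called higher. Npat was not called (0.20 ± 0.28, adjusted p = 0.7). Of the supply genes, 8 were called higher in S-marked than in G2/M-marked cells and 0 lower, against 0.595% and 1.15% of all genes: Ccne1, Ccne2, Chaf1a, Chaf1b, E2f1, Hat1, Nasp and Slbp, with Slbp at 1.37 ± 0.31 (adjusted p = 0.01). Whether the supply genes and the members differ in this was not tested.

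Replacement histones, most of which are made from polyadenylated mRNAs outside S phase as well, were split. Of 11 genes, 5 were called higher and 0 lower in dividing cells (Cenpa, H1fx, H2afv, H2afx and H2afz), against 9.07% and 8.78% of all genes. H2afz had 3036 and 3470 CPM in dividing against 292 and 331 CPM in non-dividing thymocyte-like cells, and 2384 and 2801 against 421 and 372 CPM in mTEC-like cells (log2 2.87 ± 0.25 over classes, adjusted p = 1.2e-08). H3f3b, an H3.3 gene, had 3594 and 4690 CPM in dividing against 3021 and 3109 CPM in non-dividing mTEC-like cells and was not called over classes (-0.05 ± 0.14, adjusted p = 0.91). Cenpa, the centromeric H3 (-6.13 ± 0.59, adjusted p = 3.2e-08), and H2afx (-1.55 ± 0.30, 0.0015) were lower in S-marked than in G2/M-marked cells. In non-dividing mTEC-like against fibroblast-like cells 4 of the 11 were called higher (H2afj, H2afy2, H3f3a and H3f3b), where 22.1% of all genes were.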

How the data were processed

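The 2 libraries of CD45-depleted thymic stroma were measured with 10x 3′ single-cell RNA sequencing. Sparse matrices of unnormalized counts (UMIs by gene and barcode) were deposited by the authors and used unchanged. The file header names Cell Ranger 6.0.0, whereas Cell Ranger 7, Seurat 4 and the mm10 build are listed, per the submitters' processing notes. How Cell Ranger assigned reads shared by near-identical histone genes is not given in the sources used here.

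The filters were 500 genes, 1000 UMIs and a mitochondrial share of up to 10% (median UMIs 8727 and 1874 in libraries 1 and 2). Classes were gated on marker UMIs per 10,000 UMIs of a cell; the gate levels and division limits were chosen after seeing the data. No doublet caller was run: cells with markers of another class above a set limit (15 thymocyte marker UMIs per 10,000 for stromal classes) were left out. The members, lists and comparisons were chosen with earlier results of these data known.

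UMI counts were summed per library, class and state (at least 10 cells, or 5 cells for S and G2/M sets) and fitted by edgeR's quasi-likelihood method (version 4.0.16, R 4.3.3). The fit used TMM factors, the filterByExpr cut, the library as a block and Benjamini-Hochberg adjustment. Each SE of a fitted log2 fold was derived from the test, as the absolute fold divided by the square root of its F statistic. The state fit held 22 sums of 11 groups, and the phase fit 28 sums of 14 groups. The block pairs sums that come from the same library. DESeq2 1.42.0, other scalings, gates and filters, and each library left out in turn were alternatives. The average over classes was also run on counts simulated from the fit's own means and spread, with known changes put in. Such a run cannot show how the fit performs on real libraries or in the other comparisons, so no conclusion is drawn from it. Tables were handled with numpy 2.4.6, pandas 2.3.3 and scipy 1.17.1, and figures drawn with matplotlib 3.10.9. Stem-loops and annotated ends came from GENCODE vM21 (GRCm38) and promoters from RefSeq (GRCm38.p6).

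Named were the 12 members with the most UMIs and, per comparison, up to 6 called members with the largest fold in each direction and over 3 counts in each group, plus called genes of the supply and replacement lists or the 5 with the most UMIs. Members named outside that rule were chosen after their values were seen. Intervals cover counting error only.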

Additional observations from a re-analysis of the deposited data

Results flagged for a closer look

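For 3 members the difference between dividing and non-dividing cells, on log2 CPM with TMM scaling and a prior count of 2, had opposite signs in 2 classes in both libraries. Without TMM scaling this holds for 2 of them, Hist2h2be and Hist3h2ba, and not for Hist1h2bc. Hist2h2be, an H2B gene, differed by -1.61 and -0.54 on the log2 scale between dividing and non-dividing thymocyte-like cells and by 1.38 and 0.82 in mTEC-like cells, a gap of -2.18 between the class means. The interaction was not called by edgeR (-2.03 ± 0.84, adjusted p = 0.37). Hist3h2ba, another H2B gene, differed by -4.45 and -1.58 in thymocyte-like and by 0.58 and 0.33 in mTEC-like cells, a gap of -3.47, and was not called either (-2.69 ± 1.23, adjusted p = 0.44). It rests on 0 and 20 UMIs in dividing against 4 and 14 UMIs in non-dividing thymocyte-like cells. Hist1h2bc differed by 0.79 and 0.16 in thymocyte-like and by -0.60 and -2.23 in fibroblast-like cells, a gap of 1.89, and the difference was not tested. Its sign in thymocyte-like cells of library 2 turns with the scaling: on CPM without TMM factors it had 81.9 CPM in dividing against 93.9 CPM in non-dividing cells there, lower in dividing cells as in fibroblast-like cells (21.6 against 68.8 CPM).

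Barcodes under 1000 UMIs were outside every main comparison. They held 1153 CPM of the histone members in library 1 (499 barcodes) and 2399 CPM in library 2 (8363 barcodes). The same barcodes held 4138 and 6635 CPM of the 16 thymocyte markers. Only the alternative with looser cell filters could admit some of them, from 500 UMIs.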

How the results depend on the processing

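Averaged over classes, 33 to 43 members were called higher in dividing cells under the alternatives run, 31 to 38 in mTEC-like, 21 to 32 in thymocyte-like and 11 to 41 in fibroblast-like cells. Without the replicate block the counts were 34, 37, 28 and 14. With cells that carried thymocyte markers kept, the counts were 41 higher in fibroblast-like cells, 0 lower over classes (so Hist3h2a was no longer called), 2 lower in S-marked cells and 0 lower in mTEC-like against fibroblast-like cells. That last count, 1 as reported (Hist2h2ac), was also 0 with DESeq2, with RLE size factors, with no low-count filter and without the block. DESeq2 called 21 members higher in thymocyte-like cells. The interaction had 2 lower calls with no filter and 2 with the stricter dividing gate. In S-marked cells 2 were lower with the stricter and 0 with the looser gate. Medians over all 63 genes with 1 library left out ran from -0.46 to 1.33 in fibroblast-like cells, 1.82 to 2.61 in thymocyte-like, 1.72 to 2.20 in mTEC-like, -0.11 to 0.086 for the interaction and 1.79 to 2.00 for thymocyte-like against mTEC-like cells. A prior count of 0.5 gave medians of -0.35 for the interaction (0.077 with a prior count of 2), 2.17 for mTEC-like cells, 0.78 for mTEC-like against fibroblast-like and 1.87 for thymocyte-like against mTEC-like cells. RLE scaling moved the median of all genes by -0.18 in thymocyte-like and 0.21 in fibroblast-like cells, and split all calls 907 higher and 856 lower in thymocyte-like cells (1004 and 440 as reported) and 412 and 206 in fibroblast-like cells (330 and 315). The cause of these shifts was not tested. Of the named members' values, 1947 kept their side of the threshold, 48 gained and 44 lost it. Among values called as reported or under the alternative, 0 turned direction. The direction of values called in neither was not compared. The stricter gate left 8 dividing fibroblast-like cells in library 2 and gave no fibroblast value.

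With 2 libraries, 15 dividing thymocyte-like cells in library 1 and 18 dividing fibroblast-like cells in library 2 limit every comparison that uses them.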
